A study of Zea mays with 6 samples.

Results

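The genes described here are 5 maize genes of the gibberellin pathway, chosen by identifier from the 45953 features of the deposited count table. Of these, 3 encode enzymes of gibberellin synthesis: an1 (anther ear1, Zm00001d032961), d3 (dwarf3, Zm00001d045563) and d1 (dwarf1, Zm00001d039634). The other 2, d8 (dwarf8, Zm00001d033680) and d9 (dwarf9, Zm00001d013465), encode DELLA proteins. The pairing of symbol and identifier came with the choice of genes, since the count table holds identifiers only. In RefSeq's names for assembly Zm-B73-REFERENCE-NAM-5.0, an1 and d8 are on chromosome 1, d1 (as Dwarf1) on chromosome 3, d9 on chromosome 5 and d3 on chromosome 9. All 5 genes passed the filter on low counts, which 23349 features passed in all.

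Gibberellins are diterpenoid hormones that promote stem elongation and other growth. The soluble receptor GID1 binds the active hormone and then a DELLA protein, which is marked for degradation, so that growth genes held back by DELLA are released. Maize plants with too little gibberellin are dwarfed and form anthers in the ear, where stamens normally abort. In shoot meristems, KNOTTED1-type homeobox proteins are known to keep gibberellin low, in maize by activating a gene for an enzyme that inactivates the hormone. The title of the series names knotted1 and hormone signalling as subjects of the study.

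Transcripts were counted in young tassels, the male inflorescences of maize, cut out as meristems of 1 mm from plants at the V6-V7 stage. There were 3 libraries from the tassel-less1 (tls1) mutant, which the labels call boron deficient, and 3 from WT plants of the inbred line B73. The labels give B73 as the cultivar of both genotypes, and they name no tls1 allele, no number of plants per library and no way by which the mutation was brought into that line. All plants were grown in a greenhouse with 16 h of light and fertilizer at 238 ppm nitrogen and 0.08 ppm boron, with no treatment, and sampling preceded visible defects of the mutant, per the series' design. The counted reads numbered between 73471188 and 74733984 in tls1 libraries and between 72498318 and 77619452 in WT libraries, and the lowest count of any of the 5 genes was 197, for d1 in tls1 library 3.

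Libraries of both genotypes carry the replicate numbers 1, 2 and 3. Those of the same number deviated together from their genotype's mean, least closely for number 1 (see the processing account). Changes are therefore also given within each number, as tls1 over WT. By this measure pair 1 was the widest: 90% of the tested features lay between -0.62 and 1.55 on the log2 scale in pair 1, between -0.64 and 0.74 in pair 2 and between -0.56 and 0.98 in pair 3. Library tls1 1 also had the lowest mitochondrial share of reads, 0.135%, against 0.316% and 0.244% in the other tls1 libraries and between 0.187% and 0.319% in WT libraries. The part of that library's makeup in the values below was not tested.

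Among the 5 genes, an1 was lower and d3 higher in tls1 within all 3 pairs. The genes d1, d8 and d9 were higher in tls1 in pair 1 and level or lower in pairs 2 and 3. Without the replicate number in the model, edgeR's quasi-likelihood test called 0 of the 5 genes at an adjusted p under 0.05, and it called 0.00428% of all tested features. An unadjusted p under 0.05 was reached by 1 of the 5 genes, an1, and by 16.5% of all tested features. With the replicate number as a block, edgeR called 1 of the 5, an1, against 0.694% of all tested features. DESeq2 called 0 of the 5 without the block, against 5.39% of all features, and 2 with it, an1 and d3, against 7.0%. The ranges of tls1 and WT libraries overlapped in all 5 genes, while 22.5% of all tested features showed no overlap.

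**Figure D1:**
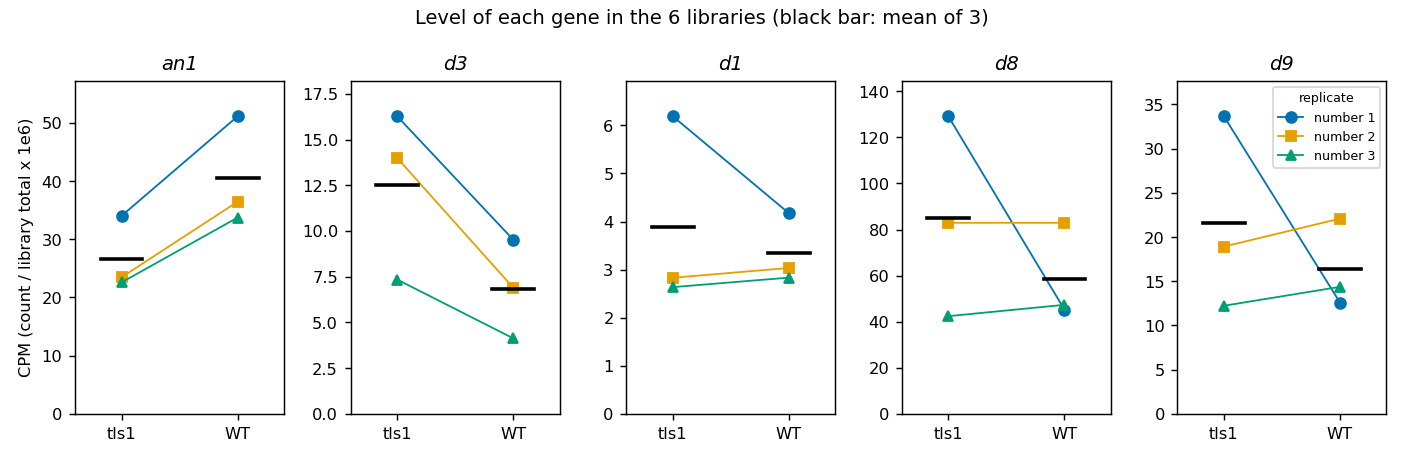
Level in CPM (vertical axis from 0, own scale for each gene) of the 5 genes in tls1 libraries (left in each panel) and WT libraries (right). Each symbol is 1 library, lines join libraries of the same replicate number, and black bars are means of 3 libraries. All 3 lines run upward from tls1 to WT for an1 and downward for d3, while for d8 and d9 the line of number 1 crosses the others, with tls1 1 at 129.1 and 33.7 CPM.

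The gene an1 encodes ent-copalyl diphosphate synthase, which makes the first cyclic intermediate on the way to gibberellin. Its level was 34.0, 23.5 and 22.6 CPM in tls1 libraries 1, 2 and 3, against 51.1, 36.5 and 33.7 CPM in WT libraries 1, 2 and 3. CPM is the count divided by the library's total and multiplied by 1000000. All tls1 values but that of tls1 1 lay below all WT values, and the groups overlapped only by tls1 1 exceeding WT 3, by a factor of 1.01. The tls1 level was 33.5% lower in pair 1, 35.6% lower in pair 2 and 33.0% lower in pair 3. These 3 changes spanned 0.056 on the log2 scale, and 2.86% of the tested features had a span as small. Their 95% counting intervals ran from -0.66 to -0.52, -0.72 to -0.55 and -0.67 to -0.49 in pairs 1, 2 and 3. Such intervals cover counting error only. Each was wider than the span, so the counts do not resolve so close an agreement. CPM was lower in tls1 in all 3 pairs for 21.3% of the tested features (24.1% with TMM scaling). It was lower by at least 1.4-fold in all 3 for 0.779% of them, an1 included. The limit of 1.4-fold was not among the planned settings and lay just below the smallest change of an1, 1.49-fold in pair 3. That share is therefore a description only.

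The mean level of an1 was 26.7 ± 6.36 CPM in tls1 and 40.4 ± 9.36 CPM in WT (SD, n = 3 each). Without the replicate block, edgeR gave a log2 fold change of -0.62 ± 0.22 (SE, adjusted p = 0.241), with a 95% interval from -1.14 to -0.10. With the block it was also -0.62, now ± 0.063 (SE, edgeR adjusted p = 0.0351), with an interval from -0.78 to -0.46. This corresponds to 0.65 times the WT level. By p, an1 then stood at rank 61 of the 23349 tested features. The blocked call was lost without pair 2 (log2 fold change -0.60, edgeR adjusted p = 0.0731) and without pair 3 (-0.63, edgeR adjusted p = 0.136), and it held without pair 1 (-0.61, edgeR adjusted p = 0.0253).

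The gene d3 encodes a cytochrome P450 of the CYP88A family, ent-kaurenoic acid oxidase, which acts further down the same route. Its level was 16.3, 14.0 and 7.35 CPM in tls1 libraries 1, 2 and 3, against 9.52, 6.90 and 4.13 CPM in WT libraries 1, 2 and 3. The groups overlapped, since tls1 3 lay below WT 1, but within each number tls1 was the higher library. The tls1 level was 1.71-fold higher in pair 1, 2.03-fold in pair 2 and 1.78-fold in pair 3. These changes spanned 0.25 on the log2 scale, and 35.8% of the tested features had a span as small. CPM was higher in tls1 in all 3 pairs for 24.6% of the tested features (21.7% with TMM scaling). It was higher by at least 1.4-fold in all 3 for 3.31% of them, d3 included. That share, at the same unplanned limit as for an1, is a description only.

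The mean level of d3 was 12.5 ± 4.64 CPM in tls1 and 6.85 ± 2.70 CPM in WT (SD, n = 3 each). Its log2 fold change was 0.85 ± 0.39 without the block (SE, edgeR adjusted p = 0.338, 95% interval from -0.079 to 1.78). With the block it was 0.85 ± 0.12 (SE, edgeR adjusted p = 0.0546, 95% interval from 0.56 to 1.15), which missed the threshold. DESeq2 with the block gave 0.86 ± 0.16 (SE) and called it (DESeq2 adjusted p = 8.97e-06). Blocked edgeR called d3 without pair 1 (0.92, edgeR adjusted p = 0.0394), but not without pair 2 (0.78, edgeR adjusted p = 0.134) or pair 3 (0.87, edgeR adjusted p = 0.216).

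The gene d1 encodes a gibberellin 3-oxidase, the enzyme of the final step to active gibberellin. It had 6.19, 2.83 and 2.64 CPM in tls1 libraries 1, 2 and 3, against 4.17, 3.03 and 2.83 CPM in WT libraries 1, 2 and 3. Library tls1 1 was the highest of all 6 and the other tls1 libraries the lowest, so that tls1 surrounded WT. The tls1 level was 1.48-fold higher in pair 1, 6.71% lower in pair 2 and 6.97% lower in pair 3. In pairs 2 and 3 the 95% counting intervals of the log2 change included 0 and ran from -0.37 to 0.17 and from -0.38 to 0.18. Such intervals cover counting error only.

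The log2 fold change of d1 was 0.19 ± 0.37 without the block (SE, edgeR adjusted p = 0.835) and 0.11 ± 0.22 with it (SE, edgeR adjusted p = 0.817). The 95% interval without the block, from -0.70 to 1.09, reached from 0.62 to 2.13 times the WT level, and that with the block from 0.74 to 1.57 times. Without tls1 1 the value turned negative, to -0.30 (edgeR adjusted p = 0.724).

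The enzyme genes differed in direction, with an1 lower and d3 higher in tls1 in every pair. Their summed level was 56.5, 40.3 and 32.6 CPM in tls1 libraries 1, 2 and 3, against 64.8, 46.4 and 40.7 CPM in WT libraries 1, 2 and 3, and an1 made up most of each sum. The count ratio of an1 to d3 does not depend on library size. It was 2.09, 1.68 and 3.07 in tls1 libraries 1, 2 and 3, against 5.37, 5.29 and 8.17 in WT libraries 1, 2 and 3. The highest tls1 ratio lay below the lowest WT ratio. This ratio combines the lower an1 and the higher d3 level given above and is no separate result. The ratio of an1 to d1 also did not overlap, at 5.50, 8.29 and 8.57 in tls1 libraries, against 12.2, 12.0 and 11.9 in WT libraries. Across the WT libraries an1 and d1 thus kept almost the same proportion, while their levels differed up to 1.52-fold for an1 and 1.47-fold for d1. With 324, 220 and 212 reads of d1 in WT libraries 1, 2 and 3, counting error exceeds the differences between these WT ratios. So close an agreement is thus not resolved. The ratio of d3 to d1 did not overlap either. It was 2.63, 4.94 and 2.79 in tls1 libraries 1, 2 and 3, against 2.28, 2.27 and 1.46 in WT libraries. These ratios are of counts, not of levels per transcript length, and they are given as a description without a test. How many other pairs of features had ratios that did not overlap was not counted.

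**Figure D2:**
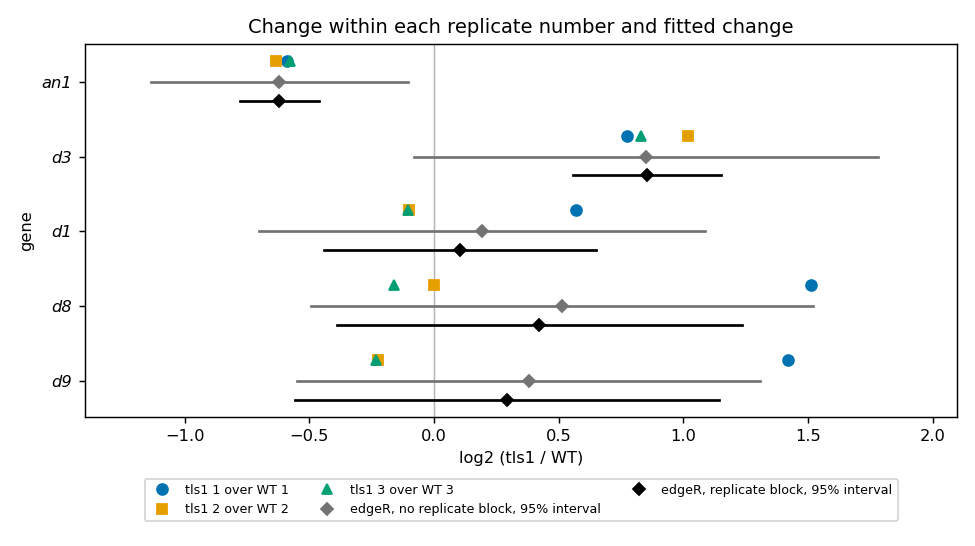
Change of each gene on the log2 scale (horizontal axis, tls1 over WT). Coloured symbols are the CPM changes within replicate numbers 1, 2 and 3, and diamonds with lines are edgeR estimates with 95% intervals, grey without and black with the replicate block. The pairs lie close together for an1, between -0.63 and -0.58, and are widest apart for d8, between -0.16 and 1.51.

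The DELLA gene d8 is the locus of dominant dwarf alleles of maize, in which altered proteins escape gibberellin-triggered degradation. It had 129.1, 82.9 and 42.4 CPM in tls1 libraries 1, 2 and 3, against 45.3, 82.9 and 47.3 CPM in WT libraries 1, 2 and 3. The tls1 libraries held both the highest and the lowest value, a 3.05-fold range, while the WT range was 1.83-fold. In pair 1 the tls1 level was 2.85-fold that of WT, and 5.26% of the tested features had a change as high or higher in that pair. In pair 2 the unscaled levels differed by 0.0109%, with a 95% counting interval of the log2 change from -0.052 to 0.051. In pair 3 tls1 was 10.4% lower.

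The mean level of d8 was 84.8 ± 43.4 CPM in tls1 and 58.5 ± 21.2 CPM in WT (SD, n = 3 each), a difference smaller than the spread within tls1. Without the block, edgeR gave a log2 fold change of 0.51 ± 0.42 (SE, adjusted p = 0.585) and with it 0.42 ± 0.33 (SE, adjusted p = 0.512). The 95% interval without the block ran from -0.49 to 1.52. The value rested on tls1 1: without that library it was 0.085 (edgeR adjusted p = 0.965), and with the block and without pair 1 it was -0.086 (edgeR adjusted p = 0.612).

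The second DELLA gene, d9, is a close relative of d8 and is likewise known from a dominant dwarf allele. It had 33.7, 18.9 and 12.2 CPM in tls1 libraries 1, 2 and 3, against 12.6, 22.1 and 14.4 CPM in WT libraries 1, 2 and 3. The 6 libraries stood in the same order for d9 as for d8, from tls1 1 at the top through WT 2, tls1 2, WT 3 and WT 1 to tls1 3. In pair 1 tls1 was 2.67-fold higher, and in pairs 2 and 3 it was 14.3% and 14.9% lower.

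The mean level of d9 was 21.6 ± 11.0 CPM in tls1 and 16.3 ± 5.05 CPM in WT (SD, n = 3 each). Its log2 fold change was 0.38 ± 0.39 without the block (SE, edgeR adjusted p = 0.661) and 0.29 ± 0.34 with it (SE, edgeR adjusted p = 0.665). The 95% interval without the block ran from -0.55 to 1.31. Without tls1 1 the value was -0.082 (edgeR adjusted p = 0.959). With the block and without pair 1 it was -0.24 (edgeR adjusted p = 0.283).

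The DELLA genes varied together across libraries. The likeness of 2 patterns was measured as the root mean square difference of their log2 CPM over the 6 libraries, after each was centred on its own mean. It was 0.13 between d8 and d9, against a median of 0.61 between d8 and all tested features averaging at least 1 CPM. Of those 19563 features, 38 were as close to d8 as d9 was, d9 included. The count ratio of d8 to d9 was 3.84, 4.38 and 3.47 in tls1 libraries 1, 2 and 3, against 3.60, 3.75 and 3.29 in WT libraries 1, 2 and 3, and the groups overlapped. Reads that fit both copies could be shared between these related genes or dropped, as the counting program is not given in the sources used here. The part of such reads in their common pattern was not tested.

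Library tls1 1 was the highest of the 6 libraries for d3, d1, d8 and d9, and ranked below WT 1 and WT 2 for an1. For d8 and d9 it was at least 1.5 times every other library. This held for 3.11% of the tested features in tls1 1 and for between 0.441% and 1.13% in any other library. The limit of 1.5 was not among the planned settings, and both genes passed it narrowly. Their levels were 129.1 and 33.7 CPM in tls1 1, against 82.9 and 22.1 CPM in WT 2, the next highest. These shares are a description only. In bulk tissue, a difference in the share of cells that express a gene and a difference in RNA per cell cannot be told apart.

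**Figure D3:**
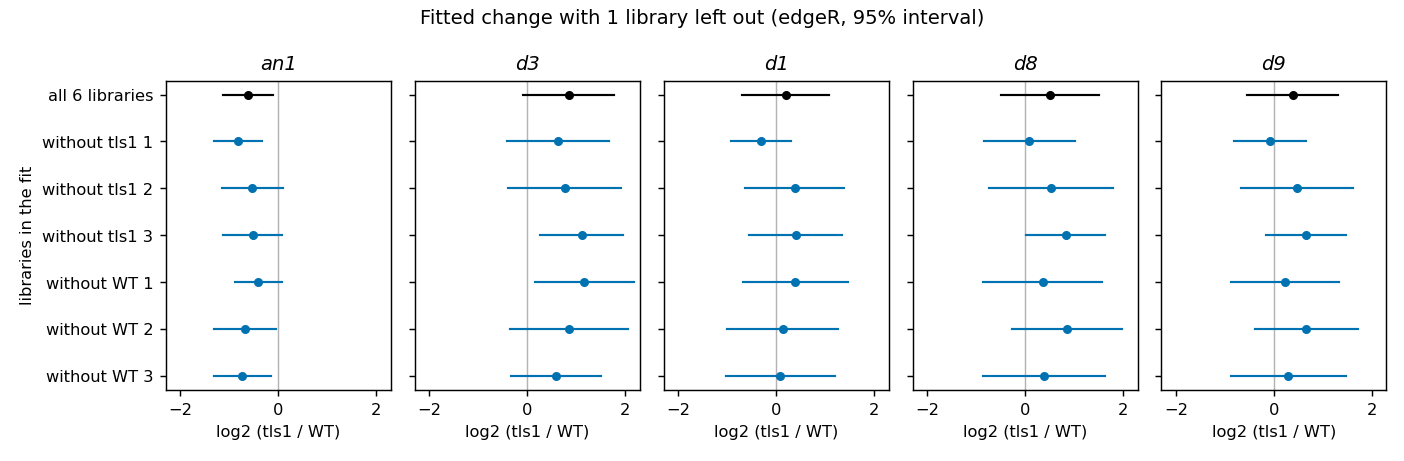
Estimated log2 fold change (horizontal axis, tls1 over WT, edgeR without the replicate block) with its 95% interval for all 6 libraries (black) and with 1 library left out (blue), for each gene. Leaving out tls1 1 moves d8 to 0.085, d9 to -0.082 and d1 to -0.30, while the estimates of an1 stay below 0 and those of d3 above 0 in all 6 such fits.

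The sum of squares of log2 CPM over the 6 libraries was divided into a part for genotype, a part for replicate number and the rest. For an1, 56.5% lay with genotype, 43.4% with replicate number and 0.0940% with the rest, and 0.270% of the tested features had as small a rest. For d3 these parts were 43.7%, 55.7% and 0.641%, with 2.09% of the features at as small a rest. The median rest over all tested features was 22.1%. The rest measures how far the changes within pairs differ, which for an1 was less than the width of their counting intervals. Number 1 gave the highest and number 3 the lowest level of an1, d3 and d1 in each genotype, though numbers 2 and 3 lay close together for d1. For d1, 84.8% lay with replicate number and 1.97% with genotype. For d8 and d9 the rest held 40.7% and 56.9%, and genotype 14.6% and 9.75%, where the median feature had 24.4% with genotype.

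**Figure D4:**
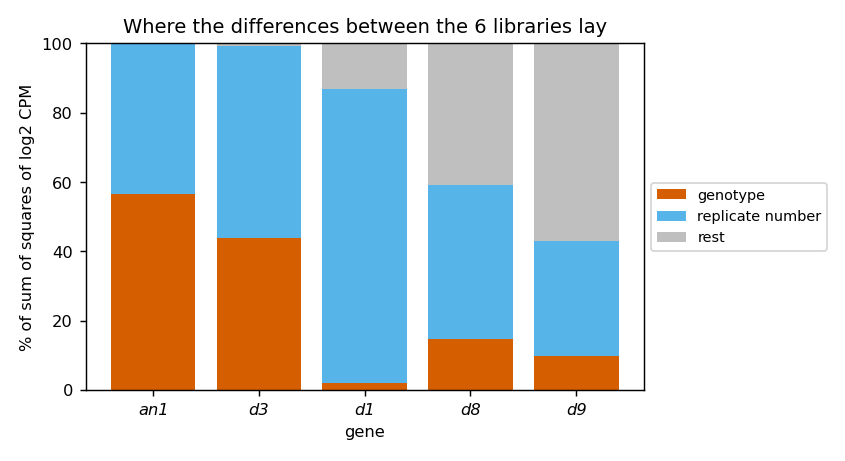
Share (vertical axis, %) of the sum of squares of log2 CPM over 6 libraries that lay with genotype, with replicate number and with neither, for each gene. For an1 and d3 almost nothing is left after genotype and replicate number, whereas the rest is 40.7% for d8 and 56.9% for d9.

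Of all 5 genes, d3 had the widest range over the 6 libraries, 3.94-fold, and an1 the narrowest, 2.26-fold. As an SD of log2 CPM these were 0.72 and 0.44, against a median of 0.19 over all tested features. Apart from the sums and count ratios above, which are not corrected for transcript length, levels were not compared between the 5 genes. Transcript lengths for these identifiers were not used here.

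The feature closest in pattern to d8 and d9 summed was Zm00001d018214, with a root mean square difference of 0.061 over the 6 libraries, against a median of 0.59. Its level was 342.3, 215.3 and 127.9 CPM in tls1 libraries 1, 2 and 3, against 122.7, 214.6 and 131.8 CPM in WT libraries 1, 2 and 3. The feature closest to the summed enzyme genes was Zm00001d011771, at 0.055 against a median of 0.36. It had 26.4, 19.6 and 16.1 CPM in tls1 libraries 1, 2 and 3, against 30.1, 21.5 and 17.9 CPM in WT libraries 1, 2 and 3. Both were the closest of 19559 candidates over only 6 libraries, and the files do not pair either identifier with a name.

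Neighbours were taken as the tested features within 20 rows of the count table on either side of each gene, and described by the median of their mean log2 change over the pairs. Around an1 it was -0.019 over 20 neighbours, with 5 lower and 4 higher in tls1 in all 3 pairs. Around d3 it was 0.040 over 26 neighbours, with 8 lower and 7 higher in all 3 pairs. Around d1 it was 0.19 over 26 neighbours, with 3 lower and 9 higher in all 3 pairs, while the mean change of d1 itself was 0.12. Over all tested features, 21.3% were lower and 24.6% higher in all 3 pairs. The median of the mean change was -0.033 over 19 neighbours of d8, with 7 lower and 3 higher in all 3 pairs. For d9 it was -0.022 over 22 neighbours, with 6 lower and 4 higher. In pair 1 alone, the median change was -0.0075 around d8 and -0.037 around d9.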

How the data were processed

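Per the labels' protocols, the RNA was selected for poly-A tails and read as paired ends. Cutadapt trimming and STAR alignment are named in the submitters' processing notes. How reads were counted, with which strand setting and on which build, is not given in the sources used here. The authors deposited raw read counts, not normalized.

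Counts were tested with edgeR 4.0.16 (R 4.3.3): quasi-likelihood F test, TMM factors, filterByExpr, genotype as the only factor, Benjamini-Hochberg adjustment over all 23349 tested features, threshold 0.05. SE and 95% intervals come from the same fit. Alternatives were DESeq2 1.42.0, limma-voom (limma 3.58.1), other scalings and filters, a replicate block and left-out libraries. The code of the fits was run on simulated counts with known changes. That run checked the code and is no support for the calls given here. For descriptions over all features 0.05 CPM was added before taking logs. Levels are CPM (count over library total), and a count of 3 corresponds to between 0.0387 and 0.0414 CPM.

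Deviations from the genotype means correlated across features at 0.406, 0.588 and 0.658 between libraries of the same number, and between -0.479 and -0.0790 otherwise. The deviations of a genotype's libraries cancel out for each feature. Positive values for the same number therefore bring negative ones otherwise, which add no further evidence of pairing. On these data alone, and with no meaning of a number in the labels, the numbers were treated as pairs. Whether separate plants were used is not stated either, so the p-values reflect the spread among these 6 libraries, possibly technical. No 2 libraries agreed within sampling noise (mean chi-square per feature at least 43.9). By that measure, which keeps the genotype difference, tls1 1 was closer to WT 2 (71.7) than to WT 1 (127.2). Among WT libraries, tls1 2 was closest to WT 2 (43.9) and tls1 3 to WT 3 (46.3).

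The 5 genes and all lists were chosen with earlier results of these data known. The rule for named genes took these 5, 31 further pathway symbols and the closest feature to each of the 2 sums. RefSeq's table held 4 of the 31 symbols and 10 of 14 tissue marker symbols, but tied 0 of them to an identifier of the count table, so those genes and the tissue label were not analysed here.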

Additional observations from a re-analysis of the deposited data

How the results depend on the processing

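Each gene's fold change was recomputed under 19 alternatives. The log2 fold change of an1 was negative in all of them (-0.82 to -0.41) and that of d3 positive in all (0.59 to 1.17). The adjusted p of an1 ran from 3.92e-08 to 0.590 and that of d3 from 8.97e-06 to 0.663. The calls that appeared all came from fits with the replicate block. They were an1 in edgeR (-0.62), in DESeq2 (-0.62) and without pair 1 (-0.61), and d3 in DESeq2 (0.86) and without pair 1 (0.92). The fits that leave out a library without a block called none of the 5 genes. Without pair 1, the block reversed d8 to -0.086, d9 to -0.24 and d1 to -0.11. Leaving out 1 library without a block gave from 0.085 to 0.86 for d8, from -0.082 to 0.67 for d9 and from -0.30 to 0.40 for d1, each lowest without tls1 1. By these fits the positive values of d8, d9 and d1 rest on tls1 1 or pair 1, and the cause was not tested.

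Over all features, edgeR called 1 (higher in tls1, with 3864 features at an unadjusted p under 0.05), 13 with no filter, 2 with limma-voom, 1258 with DESeq2, 162 with the replicate block and 1634 with DESeq2 and the block. The block without pair 1, 2 or 3 gave 433, 159 and 52, and leaving out 1 library gave from 0 to 9: 0 without WT 1, WT 3 or tls1 3, 9 without WT 2, 2 without tls1 1 and 1, lower in tls1, without tls1 2. Of the 15 changes within pairs, 9 were negative, also with TMM or RLE factors. Among these, that of d8 in pair 2 was only -0.00016 by unscaled CPM, within counting error. By unscaled CPM, 46.3%, 47.3% and 50.1% of all tested features were lower in tls1 in pairs 1, 2 and 3. Without a replicate number, an alternative chosen after seeing the data, from 5 to 8 of 10 were negative. Counting error was not negligible at the lowest counts: for d1, with 197 to 461 reads a library, the counting intervals of pairs 2 and 3 included 0.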
